A study of Arabidopsis thaliana with 15 samples.

Results

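Total RNA of etiolated Arabidopsis seedlings left in darkness for 4 further hours was set against total RNA taken at the start of those hours. The members are the 3 D4h and the 3 Dark total RNA libraries, 6 of the 15 libraries of the series. Each lists 33323 genes, not all of which had reads. All seedlings were wild-type Col-0. Seeds were kept cold in darkness for 4 days and then grown in darkness at 22 °C for 4 days. D4h seedlings stayed in darkness for another 4 h. L4h seedlings received white light of 100 µmol per square metre and second for those 4 h. Their CPM values are given below for orientation. The L4h libraries also entered the main fit, and so its filter, its scaling and its estimate of the spread. Dark seedlings were collected after the 4 days. RNA came from the aerial part of the plants, and the labels do not say whether the replicates of a group were separate cultures or how many seedlings each pooled. P-values therefore measure only the spread between these libraries, which may be technical.

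A seedling that germinates in darkness lengthens its hypocotyl, keeps a closed apical hook and lives on stored lipid. Its plastids are etioplasts, which hold protochlorophyllide bound to the light-dependent oxidoreductases PORA and PORB, so that chlorophyll can form as soon as light arrives. PIF transcription factors and the COP1 ubiquitin ligase hold back the genes of photosynthesis in the dark. The circadian clock keeps running without light, with CCA1 and LHY as its morning repressors and GI, LUX and TOC1 among the genes that they repress.

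Libraries held 66.4 to 84.3 Mreads (megareads) in listed genes in D4h, 82.7 to 100.9 Mreads in L4h and 72.9 to 100.2 Mreads in Dark. Values below are CPM (reads scaled by TMM library size), always in the order of replicates 1, 2 and 3. The 4 markers of etiolated shoots (PORA, PHYA, HLS1 and PIF3) were present in every library, with sums of 1327 to 2963 CPM in D4h and 1024 to 2023 CPM in Dark. Of 10 root markers 8 stayed under 1 CPM in all libraries of both groups, and their sum was 5.92 to 12.7 CPM in D4h against 6.03 to 46.1 CPM in Dark. The 6 markers of dry seed and embryo summed to 2.52 to 22.8 CPM in D4h and 10.8 to 431 CPM in Dark. In bulk RNA of this kind fewer cells of a type and less RNA per cell cannot be told apart.

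The 3 D4h libraries did not resemble each other equally. D4h replicate 1 differed from D4h replicates 2 and 3 by a median of 0.46 and 0.465 log2 units per gene, with 19.9% and 20.2% of genes over 2-fold apart. D4h replicates 2 and 3 differed from each other by 0.0668, with 2.02% of genes over 2-fold apart, and their differences exceeded sampling noise by a ratio of 2.65 (median chi-square over that of noise alone). The other pairs within a group had ratios of 10.9 to 80.6. Replicates 2 and 3 were kept as separate libraries because their ratio exceeded the limit of 1.5 set for averaging a pair. Replicates 2 and 3 each lay 0.107 from Dark replicate 2, which is less than the 0.138 between Dark replicates 2 and 3. Dark replicate 1 also stood away from its group, by 0.386 and 0.451. D4h replicate 1 lay nearest to L4h replicate 3, at 0.433. Each result below is given by library for this reason.

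**Figure D1:**
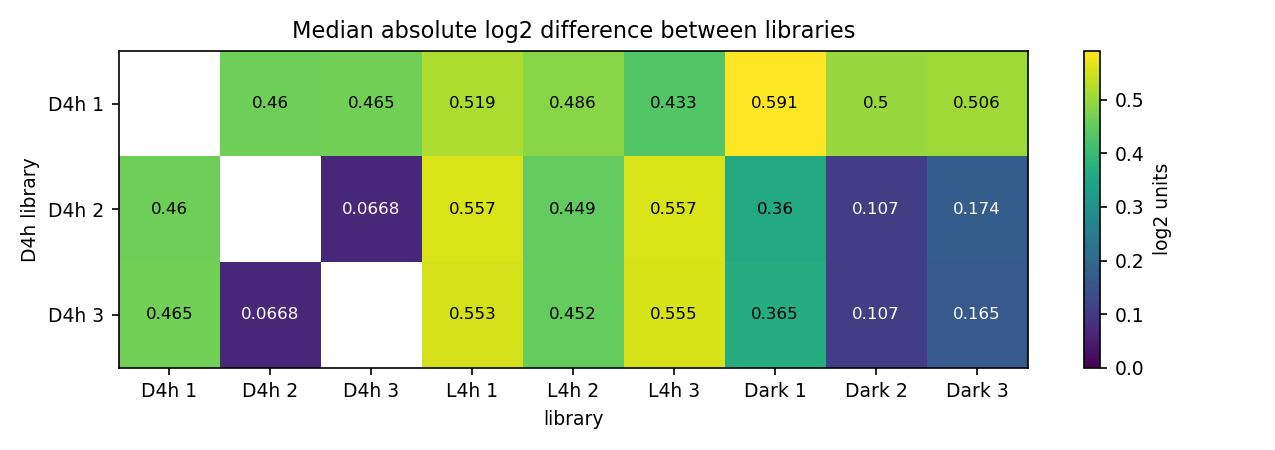
Median absolute log2 difference per gene (colour and printed value, log2 units) between each D4h library (rows) and every total RNA library (columns). D4h replicates 2 and 3 are 0.0668 apart and both 0.107 from Dark replicate 2, whereas D4h replicate 1 is at least 0.433 from every library.

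No gene passed the edgeR quasi-likelihood test between D4h and Dark (Benjamini-Hochberg adjusted p under 0.05, 3 libraries against 3). Of 21735 genes tested, 0 (0%) were called higher and 0 (0%) lower, with a smallest adjusted p of 0.848. An unadjusted p under 0.05 was reached by 533 genes with a higher and 289 with a lower mean in D4h. DESeq2 called 5 genes higher (0.0231%) and 10 lower (0.0462%) of 21644 with an adjusted p. It counted the much alike D4h replicates 2 and 3 as separate libraries and was not run with them averaged. The median log2 change over all genes tested was -0.00355. Since no gene passed, the groups are described below by whether their libraries overlap. All 3 D4h libraries lay above all 3 Dark libraries for 1307 genes (6.01% of those tested), and below them for 1337 (6.15%). D4h replicates 2 and 3 alone lay above the Dark libraries for 1999 genes (9.2%) and below them for 1988 (9.15%). With 3 libraries against 3, the smallest exact permutation p is 0.1. Gaps of this kind are therefore frequent even where groups do not differ, and more so with 2 libraries against 3. The counts are descriptions and were not tested. D4h replicate 1 stood at least 2-fold above the 5 other libraries kept in darkness for 1660 genes (7.64%) and at least 2-fold below them for 666 (3.06%).

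Among genes that were 2-fold apart in group mean and did not overlap, 317 were higher and 242 lower in D4h. D4h replicate 1 was the highest library for 310 of the 317, and 47 of them were also 2-fold higher in replicates 2 and 3 than in Dark. It was the lowest D4h library for 167 of the 242, of which 154 were also 2-fold lower in replicates 2 and 3. Most of the 2-fold higher levels thus rested on D4h replicate 1.

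Promoter sequences of the genes named first below are shown for reference (RefSeq, build TAIR10.1, 250 bases before to 50 after the annotated gene start). They were chosen because LHY had the widest gap between the groups, RBCS1B and PORB represent photosynthesis and chlorophyll synthesis among the genes with the widest gaps, and CHS is a flavonoid gene that DESeq2 called. Capitals mark matches, on either strand, to 4 motifs: CACGTG (G-box), AAAATATCT (evening element), CATGCA (RY core) and TATCCA (a sugar-starvation box known from rice alpha-amylase genes).
LHY (AT1G01060), chr1:37822-38121, minus strand: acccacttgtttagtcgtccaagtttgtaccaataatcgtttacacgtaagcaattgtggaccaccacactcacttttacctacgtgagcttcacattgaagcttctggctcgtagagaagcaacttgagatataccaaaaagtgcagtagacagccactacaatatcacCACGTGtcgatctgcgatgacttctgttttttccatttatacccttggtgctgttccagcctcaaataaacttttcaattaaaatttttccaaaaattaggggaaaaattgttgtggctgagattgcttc
RBCS1B (AT5G38430), chr5:15385271-15385570, minus strand: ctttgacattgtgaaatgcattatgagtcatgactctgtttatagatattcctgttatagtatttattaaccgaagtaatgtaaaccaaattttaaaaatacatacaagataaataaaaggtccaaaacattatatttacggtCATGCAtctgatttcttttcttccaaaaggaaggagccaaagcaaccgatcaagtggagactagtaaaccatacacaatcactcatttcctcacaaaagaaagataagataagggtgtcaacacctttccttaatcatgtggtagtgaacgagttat
PORB (AT4G27440), chr4:13725296-13725595, plus strand: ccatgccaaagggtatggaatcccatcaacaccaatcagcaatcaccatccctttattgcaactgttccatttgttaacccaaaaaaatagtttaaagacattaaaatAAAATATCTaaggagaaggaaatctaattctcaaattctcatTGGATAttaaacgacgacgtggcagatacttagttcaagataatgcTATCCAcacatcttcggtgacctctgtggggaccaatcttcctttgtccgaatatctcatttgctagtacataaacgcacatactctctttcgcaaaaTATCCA
CHS (AT5G13930), chr5:4488226-4488525, plus strand: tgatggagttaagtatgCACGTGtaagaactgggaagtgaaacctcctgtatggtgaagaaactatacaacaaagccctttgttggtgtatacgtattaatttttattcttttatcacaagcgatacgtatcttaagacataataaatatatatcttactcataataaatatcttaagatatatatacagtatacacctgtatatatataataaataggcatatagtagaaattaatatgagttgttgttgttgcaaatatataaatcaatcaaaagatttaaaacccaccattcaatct

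In the LHY window the G-box begins at position -80 and in the CHS window at -233, counted from the gene start as position 1. The RBCS1B window holds 1 RY core, at -107. The PORB window holds an evening element at -142 and sugar-starvation boxes at -100, -54 and 45, the first of them on the opposite strand. None of these matches overlap. Of the 42 windows read for the genes named by gap, by D4h replicate 1 or by DESeq2, 4 held a G-box, 3 an evening element, 7 an RY core and 7 a sugar-starvation box. Among all 27443 windows of protein-coding genes the shares were 7.68%, 2.82%, 9.72% and 16.1%. These matches are letters only and say nothing about binding.

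LHY, a MYB repressor that peaks around dawn, had the widest gap of all genes at 10 CPM or more. It stood at 188, 84.1 and 85.3 CPM in D4h, against 32.3, 27.3 and 13.5 CPM in Dark. All D4h libraries lay at least 2-fold above every Dark library, replicates 2 and 3 included. The log2 change was 2.29 ± 0.50 (estimate ± SE, edgeR adjusted p = 0.848, DESeq2 adjusted p = 0.0128). L4h libraries held 17, 32.8 and 45.7 CPM. CCA1, the partner of LHY, had 65.3, 33.9 and 32.6 CPM in D4h and 35.8, 10.3 and 6.02 CPM in Dark. Its groups overlapped through Dark replicate 1 alone, which stood above D4h replicates 2 and 3.

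Of 24 clock genes 3 lay above Dark in every D4h library and 4 below, against 6.01% and 6.15% of all genes, with a median log2 change of -0.23. The other 2 above were RVE8, an activator of evening genes related to LHY, and ELF3, a subunit of the evening complex. RVE8 had 32.8, 21 and 21 CPM in D4h against 20.7, 14.6 and 9.85 CPM in Dark. ELF3 had 172, 148 and 145 CPM against 135, 133 and 115 CPM. In both genes the lowest D4h library lay close to the highest Dark library.

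GI, a large protein of the evening phase that stabilises the photoreceptor ZTL, was among the 4 below. It stood at 26.7, 58.3 and 59.4 CPM in D4h and at 134, 72.4 and 99.5 CPM in Dark (log2 change -1.08 ± 0.33, edgeR adjusted p = 0.848). LUX, the DNA-binding subunit of the evening complex, had 25.6, 51.2 and 51.1 CPM in D4h and 75.2, 72.3 and 70.3 CPM in Dark. The LUX values of Dark lay within a narrow range, with every D4h library under it. FKF1, a blue-light receptor of the ZTL family, had 1.28, 4.09 and 4 CPM against 9.9, 5.77 and 7.46 CPM. RVE6 had 11.3, 13.9 and 14.5 CPM against 15.1, 14.7 and 15.6 CPM, a gap of under 1 CPM.

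Other clock genes overlapped between the groups. PRR7, a repressor of CCA1 and LHY, had 37.4, 64.6 and 64.6 CPM in D4h and 138, 59.8 and 79.3 CPM in Dark. TOC1 had 75.4, 129 and 123 CPM in D4h and 181, 133 and 111 CPM in Dark. LNK2, a coactivator that works with RVE8, had 97.6, 98.1 and 98 CPM in the D4h libraries but 148, 43.8 and 40.2 CPM in Dark. The 3 D4h libraries agreed here, and Dark replicate 1 was the library apart. LNK3 had the same shape, with 21.1, 20.6 and 19.8 CPM against 26.2, 8.46 and 9.34 CPM.

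**Figure D2:**
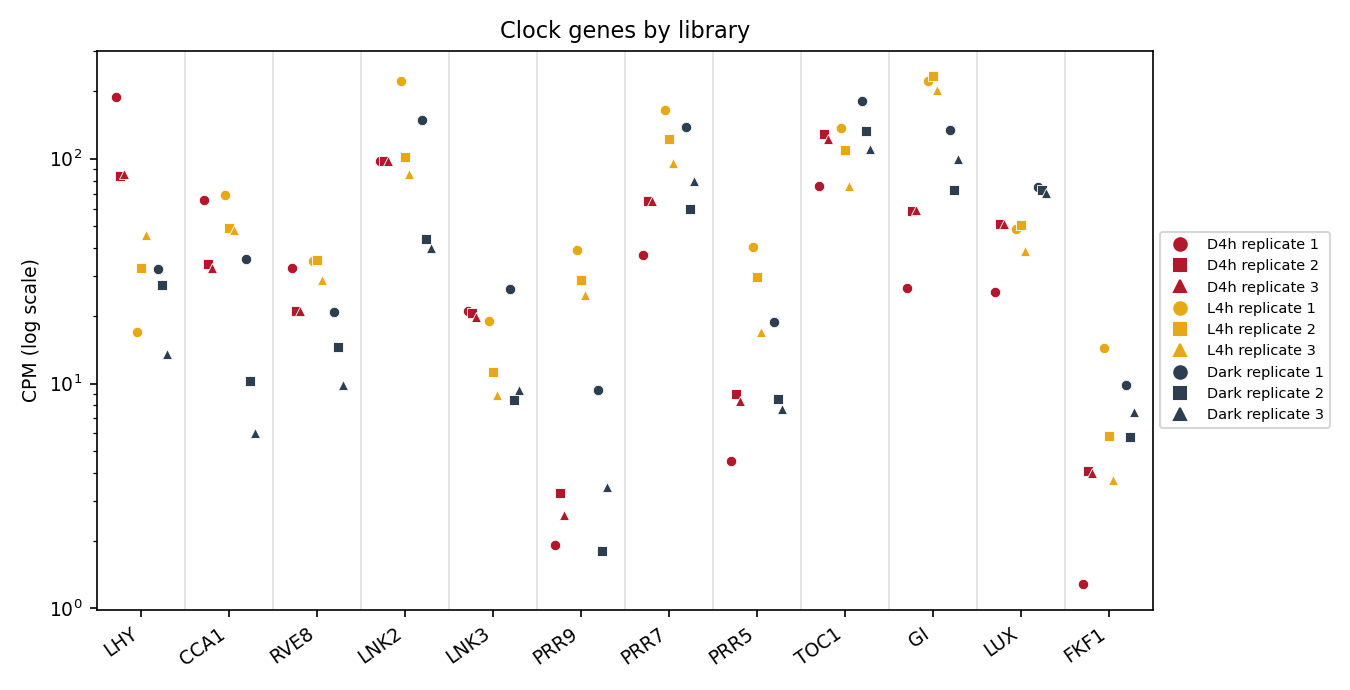
CPM (log axis) of 12 clock genes in each library of D4h, L4h and Dark, with 1 point per library. LHY is above every Dark library in D4h (84.1 to 188 against 13.5 to 32.3 CPM), while GI, LUX and FKF1 are below, and LNK2 is at 97.6 to 98.1 CPM in all 3 D4h libraries.

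Outside the clock, 5 of the other 9 genes with the widest gap above Dark encode plastid proteins, PORB among them. RBCS1B, a nuclear gene of the small subunit of Rubisco, had 272, 17.5 and 15.6 CPM in D4h and 8.77, 8.95 and 8.18 CPM in Dark. Replicates 2 and 3 alone were about 2-fold above Dark (log2 difference 0.94), and replicate 1 many times more. OEP6, annotated as a protein of the plastid outer envelope, had 136, 16.2 and 15.9 CPM against 7.51, 12.2 and 9.49 CPM. LIL3:1 and LIL3:2 encode light-harvesting-like proteins that hold geranylgeranyl reductase at the thylakoid for chlorophyll synthesis. LIL3:1 had 116, 25.1 and 23 CPM in D4h, against 17.2, 17.1 and 17.6 CPM in Dark. LIL3:2 had 854, 288 and 272 CPM against 202, 208 and 165 CPM.

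The others named by gap were of different kinds. WOX1, a homeobox gene of leaf blade growth, had 40, 15.5 and 13 CPM in D4h and 9.22, 10.3 and 6.08 CPM in Dark. AT5G66560, of the NPH3 family of phototropic signalling, had 11.3, 10.4 and 10.7 CPM against 6.3, 6.77 and 4.44 CPM. In AT5G66560 the 3 D4h libraries stood together, replicate 1 included. AT5G27890, an uncharacterized gene, had 33, 16.2 and 16 CPM against 10.8, 12.2 and 7.37 CPM. AT5G15950, an adenosylmethionine decarboxylase of polyamine synthesis, had 23.5, 10.3 and 10.8 CPM in D4h and 6.39, 3.75 and 7.06 CPM in Dark. Its reads are uncertain, since AT5G15948 carried identical values in Dark replicates 1 and 2 and none in the other libraries kept in darkness.

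Below Dark, the widest gaps were in genes of several kinds. EXT4, an extensin of the cell wall, had 46.4, 81.7 and 79.5 CPM in D4h and 160, 220 and 204 CPM in Dark (log2 change -1.49 ± 0.30, edgeR adjusted p = 0.848, DESeq2 adjusted p = 0.0152). By the gap rule that named EXT4, every D4h library stood under every Dark library. Replicates 2 and 3 alone were below Dark by a log2 difference of -1.26. AT4G20860, of the berberine bridge enzyme family, had 14.4, 36.3 and 36.6 CPM against 97, 69.8 and 74.3 CPM. HIR2, a band 7 protein of the plasma membrane, had 26.7, 46.2 and 48.4 CPM against 78, 79.5 and 94.3 CPM. NAC047, a NAC transcription factor, had 2.88, 6.93 and 6.49 CPM in D4h and 12.6, 11.9 and 13.6 CPM in Dark. These 3 shared the shape of EXT4, with replicate 1 lowest and replicates 2 and 3 together between it and Dark.

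CCD8, a dioxygenase of strigolactone synthesis, had 4.21, 16.4 and 18.1 CPM in D4h and 31.5, 26.7 and 29.3 CPM in Dark. SRG1, an oxygenase named for senescence, had 3.98, 14.5 and 14.5 CPM against 30, 21.7 and 21.2 CPM. AT1G17860, a Kunitz-type protease inhibitor, had 35, 55.9 and 56.5 CPM against 79.8, 82.1 and 80.8 CPM. PCR2, a metal transport protein, and AT4G04460, an aspartyl protease, had at most 13.3 and 12.1 CPM in D4h and at least 20.6 and 17.9 CPM in Dark. AT1G25097, uncharacterized, had 0.0844, 0 and 6.36 CPM in D4h and 18.8, 13.4 and 15.3 CPM in Dark. It overlaps another annotated gene, so its reads may be shared, as may those of PORB, LIL3:1, AT5G66560, AT4G20860, HIR2, AT4G04460, CCD8 and AT1G17860.

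**Figure D3:**
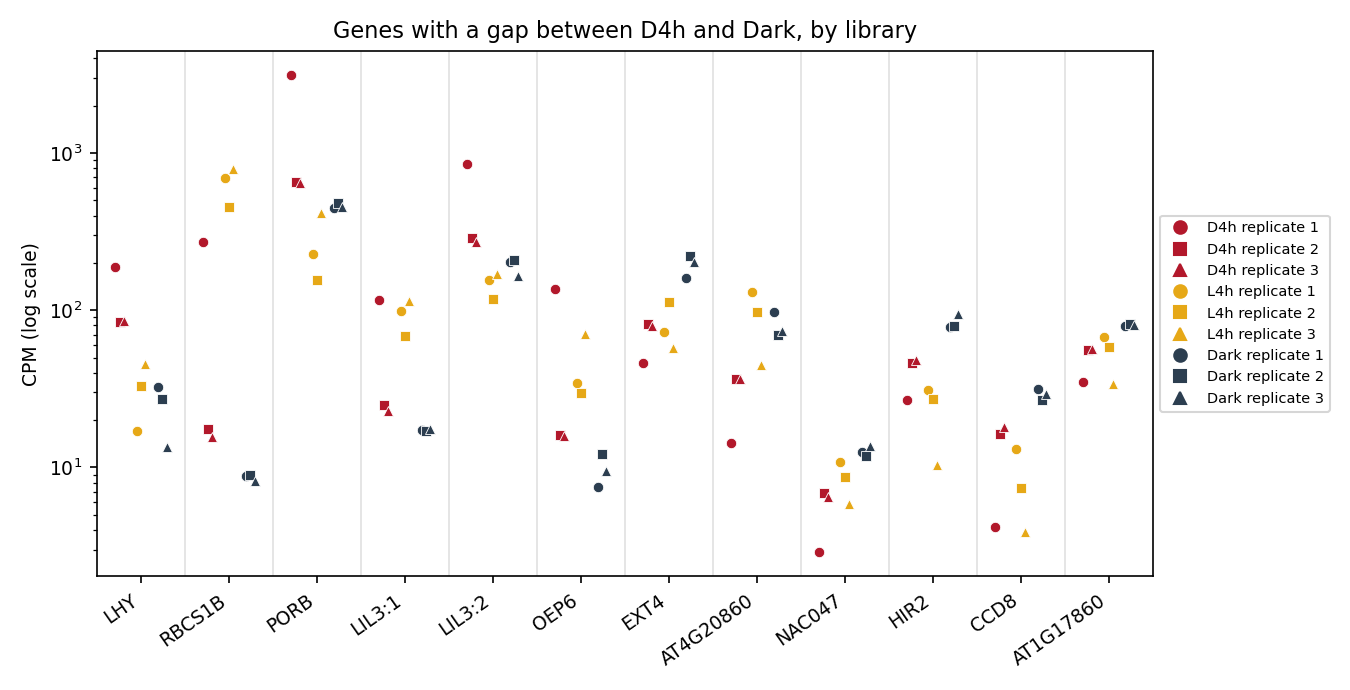
CPM (log axis) of 12 genes with a gap between D4h and Dark, 6 above and 6 below, in each library of D4h, L4h and Dark. Replicate 1 is the outermost D4h library in all 12, and D4h replicates 2 and 3 lie close together between it and the Dark libraries, as for RBCS1B at 272, 17.5 and 15.6 CPM against 8.18 to 8.95 CPM in Dark. The 12 were picked from the genes named by gap. Genes not drawn include AT5G66560, whose D4h libraries stood together (11.3, 10.4 and 10.7 CPM). In AT1G25097, also not drawn, replicate 2 was the lowest D4h library (0.0844, 0 and 6.36 CPM).

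DESeq2 called further genes below Dark at low levels. AT2G44370, of the C1 domain family, had 0.324, 0.292 and 0.394 CPM in D4h and 2.09, 1.88 and 1.9 CPM in Dark (DESeq2 log2 change -2.55, adjusted p = 1.13e-05), from 23 to 33 reads in D4h against 145 to 194 in Dark. FAR4, a fatty acyl reductase of suberin synthesis, had 0.295, 0.386 and 0.429 CPM against 1.15, 0.911 and 1.25 CPM. AT5G05600, a 2-oxoglutarate-dependent oxygenase, had 1.59, 2 and 2.37 CPM against 5.41, 5.59 and 5.27 CPM. In these 3 genes the D4h libraries stood together, so the gap did not come from replicate 1.

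AT2G39518, AT1G14780, AT4G19520, AT5G48657 and AT1G63580 were called as well, all under 10 CPM in every library kept in darkness. AT1G63580 rests on 2, 2 and 4 reads in D4h and 20, 21 and 30 reads in Dark. Of the 15 calls 2 rest on few libraries. AT3G13700 had 9.22 CPM in D4h replicate 1 and 0 in the other 5 libraries kept in darkness. AT5G15948 had 6.39 and 3.75 CPM in Dark replicates 1 and 2 and 0 elsewhere in darkness. AT3G51238 was called above Dark, but overlaps the flavanone hydroxylase gene F3H and carried the same values, so its reads cannot be told apart from those of F3H.

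Nuclear genes of light-harvesting proteins stood high in D4h replicate 1, and in the other D4h libraries their sum lay within the range of Dark. Of 21 antenna genes 0 lay above and 0 below Dark in all D4h libraries, against 6.01% and 6.15% of all genes. In D4h replicate 1, 19 of the 21 stood at least 2-fold above the 5 other libraries kept in darkness, against 7.64% of all genes. Their summed level was 19067, 2038 and 1892 CPM in D4h, 30725, 17529 and 32359 CPM in L4h and 4028, 1445 and 793 CPM in Dark. The median log2 change was 1.70, but -0.26 without D4h replicate 1 and 0.69 without the libraries numbered 1 of every group, so its direction depended on both D4h replicate 1 and Dark replicate 1. LHCA1, an antenna protein of photosystem I, had 438, 25.7 and 23.3 CPM in D4h and 78.2, 16.8 and 16.1 CPM in Dark. LHB1B1, of the main antenna of photosystem II, had 369, 2.78 and 2.84 CPM in D4h against 7.51, 2.72 and 0.186 CPM in Dark. LHCB1.1, one of several near-identical copies whose reads cannot be fully told apart, had 393, 1.47 and 1.51 CPM against 10.6, 0.574 and 0.461 CPM. LHB1B1 and LHCB1.1 were the 2 antenna genes farthest apart within D4h. The other 2 antenna genes were LHCB4.2 and LHCB4.3. LHCB4.2 had 714, 133 and 122 CPM in D4h and 427, 89.1 and 45.2 CPM in Dark, so its D4h replicate 1 was highest but under 2-fold above Dark replicate 1. LHCB4.3 had 14.5, 12.8 and 12.8 CPM in D4h and 9.25, 13.2 and 11.9 CPM in Dark.

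Photosystem subunits and electron carriers followed the antenna genes. Of 27 genes 26 stood at least 2-fold above the other dark-kept libraries in D4h replicate 1, against 7.64% of all genes. In all D4h libraries 1 of the 27 (3.7%) lay above Dark, against 6.01% of all genes. Summed levels were 13128, 1841 and 1773 CPM in D4h, 20204, 11880 and 18252 CPM in L4h and 3373, 1249 and 963 CPM in Dark. The median log2 change was 1.45 with all libraries, -0.05 without D4h replicate 1 and 0.70 without the libraries numbered 1 of every group. PSBQ1, of the oxygen-evolving complex, was the gene above Dark throughout, with 469, 57.4 and 54.4 CPM in D4h and 54.2, 39.7 and 32.5 CPM in Dark. PSAH2, of photosystem I, had the largest mean log2 change (2.91 ± 1.12), from 391, 20.4 and 21.8 CPM against 31.2, 14.3 and 12.3 CPM. PSAD1 and PSAD2, also of photosystem I, had 459 and 169 CPM in D4h replicate 1 and at most 81.3 and 23.8 CPM in the other D4h libraries.

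In the Calvin cycle 16 of 19 genes had this excess in D4h replicate 1, against 7.64% of all genes. In all D4h libraries 3 lay above Dark and 1 below, against 6.01% and 6.15% of all genes. The median log2 change was 1.66, or 0.18 without D4h replicate 1 and 0.61 without the libraries numbered 1 of every group. Summed levels were 15345, 2944 and 2739 CPM in D4h and 3767, 2155 and 1739 CPM in Dark. The 3 above were RBCS1B, HCEF1 and SBPASE, the phosphatase of sedoheptulose bisphosphate. SBPASE had 373, 68.2 and 63.5 CPM in D4h and 56.9, 49.6 and 44 CPM in Dark. HCEF1, a fructose bisphosphatase of the plastid, had 177, 33.2 and 29.7 CPM against 26.4, 22.1 and 18.8 CPM. RBCS1A, another small subunit gene, had 3987, 705 and 633 CPM in D4h against 812, 503 and 374 CPM in Dark, so Dark replicate 1 lay above D4h replicates 2 and 3. CP12-3, a small regulator of the cycle, was the 1 gene below, with 6.09, 9.17 and 10.5 CPM against 12.9, 10.7 and 11.8 CPM.

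Of 26 genes of chlorophyll and tetrapyrrole synthesis 8 lay above Dark in every D4h library and 0 below, against 6.01% and 6.15% of all genes. In D4h replicate 1, 20 of the 26 stood 2-fold above, against 7.64% of all genes. With D4h replicates 2 and 3 taken alone the count above Dark was also 8, against 9.2% of all genes. The first 8 pass there by definition, so only the absence of further genes is a result. The median log2 change of the 26 genes was 1.09, with 0.10 without D4h replicate 1 and 0.34 without the libraries numbered 1 of every group. PORA had 1895, 243 and 235 CPM in D4h and 214, 161 and 162 CPM in Dark. PORB had 3149, 655 and 640 CPM in D4h and 450, 481 and 453 CPM in Dark. PORC, the isoform of light-grown plants, had 113, 14.4 and 13.2 CPM against 12.6, 10.1 and 11.5 CPM. All 3 oxidoreductase genes thus stood above Dark in each D4h library, with log2 changes of 2.14 ± 0.90, 1.68 ± 0.65 and 2.05 ± 0.78, and an edgeR adjusted p of 0.848 for each.

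Per gene length, PORB was the more abundant of the pair in darkness, at 2138, 421 and 410 RPKM in D4h and 272, 311 and 292 RPKM in Dark, whereas PORA had 1242, 151 and 145 RPKM and 125, 100 and 101 RPKM in those groups. In L4h, PORA had 3.99, 1.36 and 8.07 CPM and PORB 227, 156 and 414 CPM. D4h replicate 1 thus lay far above L4h for PORA and PORB, whereas its antenna sum lay within the L4h range. PORC, by contrast, had 115, 85.3 and 164 CPM in L4h, a range that holds the 113 CPM of D4h replicate 1.

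The other chlorophyll genes above Dark were GSA2 and HEME2 of early tetrapyrrole synthesis, CHLI2 of magnesium chelatase, DVR, the divinyl reductase, and FC2, a ferrochelatase of the plastid. DVR had 61.1, 8.67 and 8.74 CPM in D4h and 5.97, 6.28 and 7.79 CPM in Dark. FC2 had 48, 16.7 and 16.9 CPM against 16.2, 13.6 and 14.5 CPM. HEMA1, a glutamyl-tRNA reductase that starts the pathway, had 266, 72.8 and 68.5 CPM in D4h and 124, 56.1 and 53.2 CPM in Dark, and HEMA2, its less light-dependent isoform, had 29.8 to 33 CPM in D4h and 30 to 36.6 CPM in Dark.

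Plastid ribosomal protein genes of the nucleus were described in the same way. Of 25 genes 9 lay above Dark in every D4h library and 0 below, against 6.01% and 6.15% of all genes, and 23 stood 2-fold above in D4h replicate 1, against 7.64%. Sums were 4999, 1276 and 1231 CPM in D4h and 1466, 1002 and 980 CPM in Dark, with a median log2 change of 1.16, or 0.18 without D4h replicate 1 and 0.34 without the libraries numbered 1 of every group. PRPL9 had 199, 34.5 and 34.8 CPM in D4h against 30.8, 27.7 and 26.2 CPM in Dark. PRPS1 had 326, 75.9 and 70.2 CPM against 81.6, 57.9 and 58.5 CPM, and overlapped through Dark replicate 1. Cytosolic ribosomal protein genes also had their highest sum in D4h replicate 1. Their 31 members summed to 5308, 3112 and 3088 CPM in D4h and 3044, 3047 and 3131 CPM in Dark. Of these, 3 stood 2-fold above in D4h replicate 1, against 7.64% of all genes. In all D4h libraries 2, RPSaA and RPL4A, lay above Dark (6.45%, against 6.01% of all genes).

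**Figure D4:**
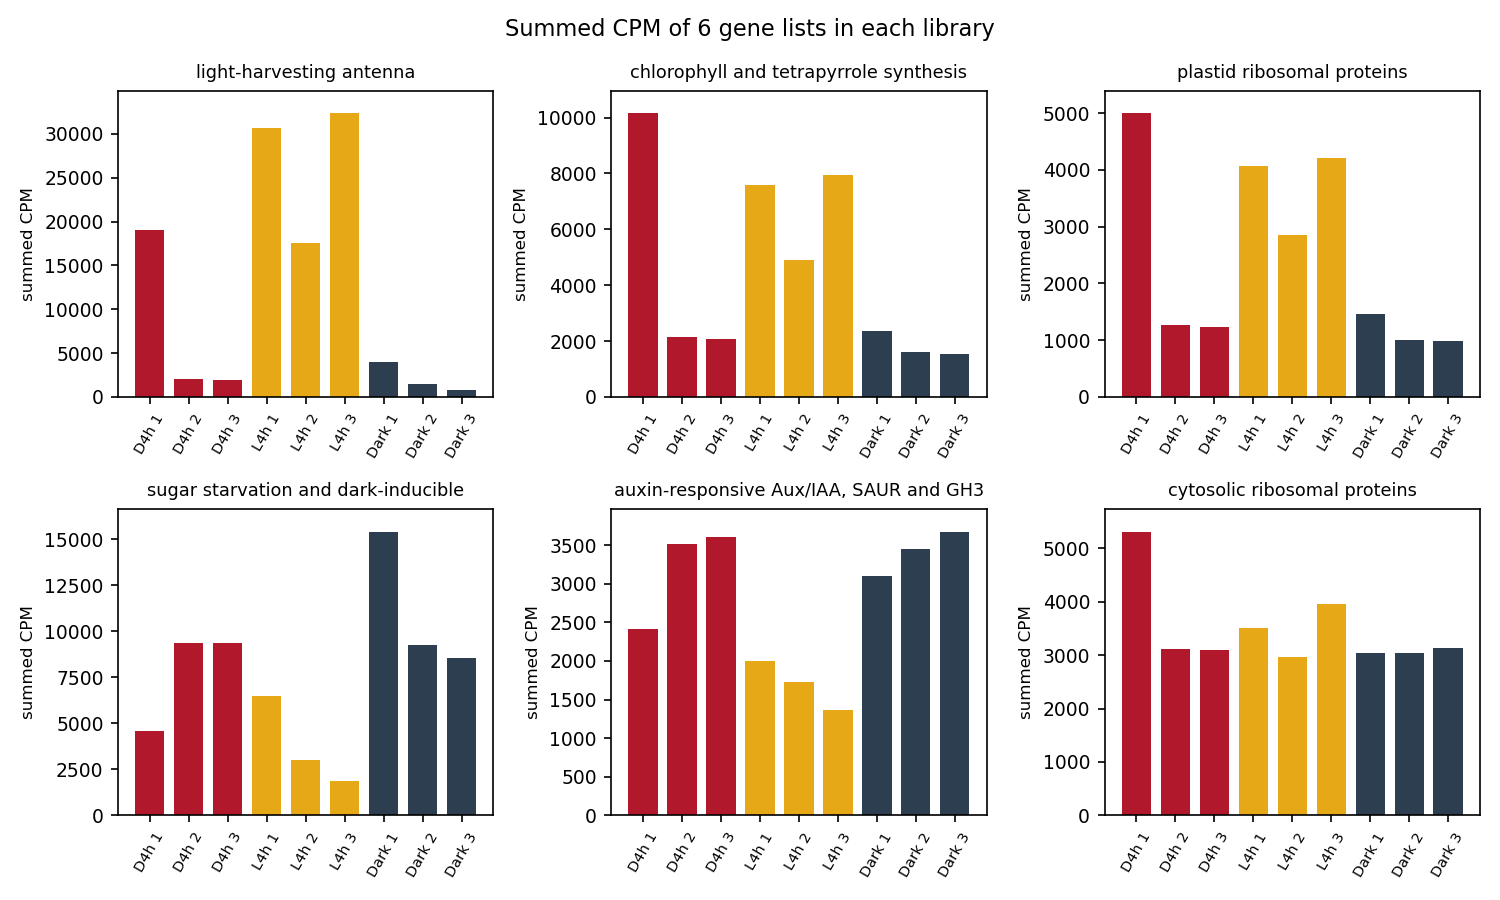
Summed CPM of 6 gene lists (bars, linear axes from 0) in each library of D4h, L4h and Dark. Antenna genes reach 19067 CPM in D4h replicate 1 and 2038 and 1892 CPM in D4h replicates 2 and 3, tetrapyrrole genes have their highest sum of all libraries in D4h replicate 1 (10157 CPM), and sugar starvation genes are lowest among the dark-kept libraries there (4610 CPM) and highest in Dark replicate 1 (15422 CPM).

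Of 20 genes of phenylpropanoid and flavonoid synthesis 7 lay above Dark in all D4h libraries and 0 below, against 6.01% and 6.15% of all genes. The median log2 change was 1.49, or 0.28 without D4h replicate 1 and 0.30 without the libraries numbered 1 of every group. CHS, chalcone synthase at the entry of the flavonoid branch, had 144, 8.59 and 9.29 CPM in D4h and 4.13, 2.68 and 3.09 CPM in Dark (log2 change 4.03 ± 1.16, DESeq2 adjusted p = 0.0306). Replicates 2 and 3 were above 2-fold over every Dark library, and L4h libraries held 160, 562 and 690 CPM. FLS1, flavonol synthase, had 17.7, 1.24 and 1 CPM in D4h against 0.719, 0.475 and 0.549 CPM in Dark. F3H had 8.39, 0.584 and 0.405 CPM against 0.288, 0.109 and 0.118 CPM. PAL1 and PAL2, entry genes of the wider phenylpropanoid pathway and also among the 20, overlapped between the groups. PAL1 had 144, 217 and 220 CPM in D4h and 136, 229 and 217 CPM in Dark, and PAL2 had 92.1, 126 and 127 CPM against 100, 128 and 130 CPM. LDOX and UF3GT, of anthocyanin synthesis, lay above Dark but stayed under 1 CPM.

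ELIP1 and ELIP2, the early light-inducible proteins that bind free chlorophyll, had the largest mean log2 changes (5.14 ± 1.56 and 4.67 ± 1.34) among 21 photoprotection genes. ELIP1 had 159, 3.47 and 3.54 CPM in D4h and 1.9, 1.41 and 1.39 CPM in Dark, and ELIP2 had 114, 4.85 and 3.79 CPM against 2, 1.4 and 1.43 CPM. Replicates 2 and 3 lay above every Dark library for both, and replicate 1 far above those (DESeq2 adjusted p = 0.0152 for ELIP2 and 0.13 for ELIP1). FSD1, an iron superoxide dismutase, had 939, 246 and 230 CPM in D4h and 98.8, 201 and 205 CPM in Dark. CAT3, a catalase, lay below Dark, with 3849, 6429 and 6277 CPM against 9253, 6573 and 6486 CPM. In all, 4 genes of the list lay above and 2 below, against 6.01% and 6.15% of all genes.

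Of 19 regulators that light induces 0 lay above Dark in all D4h libraries and 1 below, against 6.01% and 6.15% of all genes. In D4h replicate 1, 7 stood 2-fold above the 5 other libraries kept in darkness, against 7.64% of all genes. HY5, the bZIP factor of greening, had 36.8, 17 and 17.2 CPM in D4h and 18.3, 12.8 and 8.9 CPM in Dark. HYH, its homolog, had 30, 1.39 and 1.45 CPM against 2.03, 0.545 and 0.412 CPM. SIG5, a plastid sigma factor of light response, had 6.4, 1.1 and 0.799 CPM in D4h, 262, 212 and 152 CPM in L4h and 3.39, 0.812 and 0.981 CPM in Dark, so D4h replicate 1 was far from L4h in this gene. BBX22, a B-box factor that acts with HY5, was the gene below Dark, with 12.5, 19.7 and 18.9 CPM in D4h and 30.9, 24.3 and 26.2 CPM in Dark, where L4h had 159, 187 and 135 CPM.

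Of 24 light receptors, PIF genes and repressors of light signalling 2 lay above Dark in every D4h library, PIF1 and PIF3, and 0 below. The share above (8.33%) was near the 6.01% of all genes. PIF3 had 110, 81.1 and 76.8 CPM in D4h and 76.7, 71.6 and 62.7 CPM in Dark, and PIF1 had 49.3, 44 and 42.2 CPM against 37.3, 39.1 and 34 CPM. PHYA, the phytochrome of dark-grown seedlings, had 934, 1014 and 997 CPM in D4h and 1709, 888 and 788 CPM in Dark, with Dark replicate 1 apart. PHYB had 101 to 105 CPM in D4h and 92 to 120 CPM in Dark. COP1 had 39.4, 31.1 and 30.3 CPM against 30.5, 30 and 27.6 CPM.

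Among 16 genes that PIFs activate, 4 lay above Dark in every D4h library, against 6.01% of all genes, and 0 below. They were IAA29, HAT3, ATHB4 and PAR1. IAA29, an Aux/IAA repressor, had 43.6, 35.6 and 33.6 CPM in D4h and 18, 30.2 and 24.4 CPM in Dark. Summed levels of the 16 were 1871, 2267 and 2213 CPM in D4h, 373, 279 and 279 CPM in L4h and 2416, 2075 and 1872 CPM in Dark. D4h replicate 1, at 1871 CPM, was level with Dark replicate 3, at 1872 CPM, and stood far above every L4h library. ATHB2 had 69.1, 97.1 and 94.7 CPM in D4h against 74.9, 81.8 and 81.1 CPM in Dark.

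Of 25 auxin-responsive genes 0 lay above and 0 below Dark in every D4h library, against 6.01% and 6.15% of all genes. The median log2 change of the 25 was 0.05. Their sum was 2416, 3515 and 3601 CPM in D4h, 2003, 1725 and 1369 CPM in L4h and 3106, 3444 and 3674 CPM in Dark, so D4h replicate 1 had the lowest sum in darkness. SAUR19, of the small auxin-up genes of hypocotyl elongation, had 31.6, 39.6 and 40.9 CPM in D4h and 22.6, 39 and 45.7 CPM in Dark. IAA2 had 311, 417 and 420 CPM against 347, 407 and 425 CPM. Among 24 cell wall genes of the expansin and XTH families 4 lay above, against 6.01% of all genes, and 0 below. EXPA1 was one, with 77.5, 47.6 and 49 CPM in D4h and 40.8, 40.3 and 33.9 CPM in Dark, while XTH24 had 957, 2471 and 2600 CPM against 3460, 2865 and 2324 CPM.

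Ethylene, gibberellin and brassinosteroid genes had gaps about as often as all genes. Of 18 ethylene and apical hook genes 1, ACS8 of ethylene synthesis, lay above (9.03, 6.11 and 7.04 CPM in D4h, 3.31, 5.73 and 5.2 CPM in Dark) and 1, ERF1, lay below at under 1 CPM. HLS1, required for hook formation, had 24, 18.5 and 17.7 CPM in D4h and 22.7, 14.8 and 10.5 CPM in Dark. Of 24 gibberellin and brassinosteroid genes 1, GA3OX1, lay above (25.1, 25.1 and 24.7 CPM against 9.32, 22.2 and 23 CPM) and 1, RGL2, below (3.59, 3.83 and 3.43 CPM against 5.26, 4.13 and 5.08 CPM). These shares were 5.56% each way for the ethylene list and 4.17% each way for the gibberellin and brassinosteroid list. They are near the 6.01% above and 6.15% below of all genes. In 15 cell division genes 0 lay above and 0 below, against 6.01% and 6.15% of all genes. The list is too short for that to be a result. CYCD3;1 had 20, 8.36 and 7.63 CPM in D4h against 14.6, 7.57 and 6.73 CPM in Dark.

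Genes induced by sugar starvation ran opposite ways in the libraries numbered 1. Of 19 genes 0 lay above Dark in all D4h libraries and 3 below, against 6.01% and 6.15% of all genes. The median log2 change was -0.36, or -0.16 without D4h replicate 1 and 0.09 without the libraries numbered 1 of every group. Sums were 4610, 9396 and 9382 CPM in D4h and 15422, 9261 and 8568 CPM in Dark. Replicates 2 and 3 of both groups thus stood together, with D4h replicate 1 below and Dark replicate 1 above them. ASN1, the dark-inducible asparagine synthetase that stores nitrogen when carbon is short, had 279, 635 and 616 CPM in D4h and 2842, 493 and 302 CPM in Dark. DIN2, a beta-glucosidase, had 151, 904 and 936 CPM against 1851, 963 and 882 CPM. DIN1 had 378, 522 and 525 CPM against 892, 479 and 452 CPM. DIN10, KING1 and TPS10 were the 3 below, and KING1, a regulatory subunit of the SnRK1 energy kinase, had 204, 399 and 401 CPM in D4h against 574, 405 and 423 CPM in Dark.

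Autophagy genes, which act in nutrient recycling, lay below Dark in all D4h libraries for 6 of 17 members and above for 0, against 6.15% of all genes. ATG8B had 24.4, 31.2 and 32.6 CPM in D4h and 65, 38.1 and 36.1 CPM in Dark. ATG8A had 87.7, 119 and 128 CPM against 139, 129 and 145 CPM, and ATG18A had 30.2, 55.1 and 52.1 CPM against 73.6, 57.6 and 55.3 CPM. These gaps were small, and the list median was -0.25, or -0.15 without D4h replicate 1 and -0.10 without the libraries numbered 1 of every group.

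In lipid mobilisation 5 of 19 genes lay below Dark in all D4h libraries, against 6.15% of all genes, and 0 above. PED1, a thiolase of peroxisomal beta-oxidation, had 265, 308 and 308 CPM in D4h and 492, 320 and 336 CPM in Dark. SDP1, the lipase of oil bodies, had 94.5, 179 and 179 CPM against 225, 183 and 182 CPM, with replicates 2 and 3 nearly equal across the groups. The glyoxylate cycle enzymes overlapped, with ICL, isocitrate lyase, at 976, 520 and 518 CPM in D4h and 1152, 579 and 1095 CPM in Dark, and MLS, malate synthase, at 83.4, 40.2 and 41.7 CPM against 73, 38 and 82.2 CPM.

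Wound, touch and stress genes lay below Dark in all D4h libraries for 6 of 19 tested members, against 6.15% of all genes, and above for 0. WRKY33, of pathogen response, had 11, 27 and 27.3 CPM in D4h and 42.6, 42.6 and 31.8 CPM in Dark, and ZAT12, a zinc finger factor of oxidative stress, had 3.91, 5.78 and 5.47 CPM against 10.2, 7.33 and 6.17 CPM. ZAT10, VSP1, JAZ1 and JAZ10 were the other 4. The touch genes TCH2 and TCH3 overlapped, with TCH2 at 53.3, 71.8 and 69 CPM in D4h and 41.7, 70.2 and 70.7 CPM in Dark. RAB18, a dehydrin induced by abscisic acid, was high in Dark replicate 1 alone (6.26, 19.9 and 22 CPM in D4h, 111, 10.6 and 17.6 CPM in Dark). Of 18 heat shock and chaperone genes 2 lay above, CRT1 and CRT1b, and 1 below, AT3G46230, a small heat shock protein. These shares were 11.1% and 5.56%, against 6.01% and 6.15% of all genes.

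Of 15 seed storage and late embryogenesis genes 12 passed the filter on low counts. Their median log2 change was -2.67, or -2.29 without D4h replicate 1 and -2.06 without the libraries numbered 1 of every group. Yet 1 lay above and 1 below Dark in all libraries, against 6.01% and 6.15% of all genes. D4h replicate 1 stood at least 2-fold below the 5 other libraries kept in darkness for 7 of the 12, against 3.06% of all genes. CRA1, a cruciferin storage protein, had 0.197, 4.71 and 8.38 CPM in D4h and 55.2, 2.6 and 257 CPM in Dark. CRU3 had 0.155, 3.69 and 5.82 CPM against 37, 1.89 and 154 CPM. For both genes Dark replicate 2 stood above D4h replicate 1 and below D4h replicates 2 and 3. The higher mean of Dark thus rests on Dark replicates 1 and 3. OLEO3, an oleosin, was the gene above (48.9, 30.1 and 29.9 CPM in D4h, 15.5, 27 and 28.2 CPM in Dark) and SESA3 the gene below, at under 1 CPM in all libraries.

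Genes farthest apart within D4h, other than those above, were found in both directions. AT5G48490, of the lipid transfer protein family, had 29.3, 0.386 and 0.346 CPM in D4h and at most 0.503 CPM in Dark. HYR1, a glycosyltransferase, had 10.1, 0.841 and 0 CPM in D4h against 3.58, 0.664 and 0.324 CPM in Dark. NIT2, a nitrilase, was low in D4h replicate 1, with 1.91, 18.9 and 17.4 CPM against 71.2, 26 and 18.6 CPM. BGLU19, a beta-glucosidase whose promoter window held 5 RY core matches, some overlapping,, had 2.14, 20 and 22.3 CPM against 19.6, 21 and 14.3 CPM. AT3G53040, a late embryogenesis abundant protein, had 1.74, 12.8 and 14.8 CPM against 20.4, 10.7 and 6.2 CPM. The other 5 (AT1G18010, AT1G58684, AT5G01210, AT3G53668 and AT2G07698) had 0 or under 1 CPM in 1 D4h library and 15.2 CPM or more in another. Whether reads of near-identical copies were assigned differently by library was not tested.

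**Figure D5:**
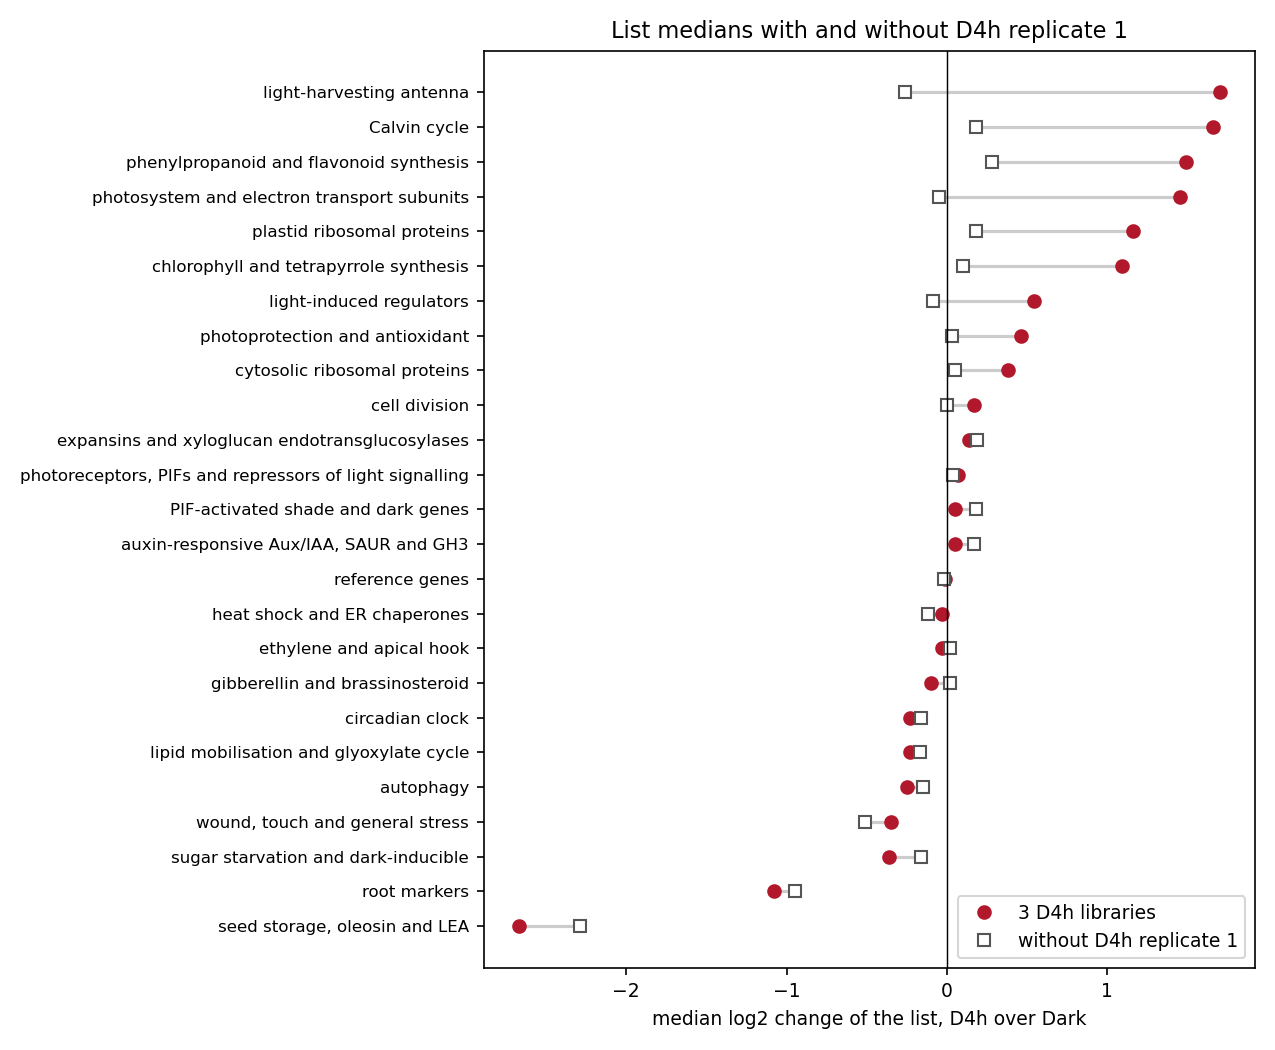
Median log2 change of each of 25 gene lists, D4h over Dark, with all 3 D4h libraries (filled) and without D4h replicate 1 (open). The antenna median is 1.70 and -0.26. The medians of the 6 lists at the top (the plastid lists and the phenylpropanoid and flavonoid list) are 1.09 to 1.70 with D4h replicate 1 and at most 0.28 without it, where Dark replicate 1 is kept. Without the libraries numbered 1 of every group, which is not drawn, they are 0.30 to 0.70.

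Reference genes set the scale of these contrasts. Of 11 genes 1, GAPC1, lay above Dark in all D4h libraries and 0 below, against 6.01% and 6.15% of all genes. ACT2 had 1135, 2031 and 2057 CPM in D4h and 3288, 1972 and 1891 CPM in Dark, and UBQ10 had 1687, 2987 and 2910 CPM against 4370, 3056 and 2940 CPM. The libraries numbered 1 were at opposite ends for both genes, as for the sugar starvation list. TIP41L had 21.7, 19.9 and 20.8 CPM in D4h and 22.1, 20.2 and 20.3 CPM in Dark, and PP2AA3 had 71.8, 67 and 68.5 CPM against 81.5, 69 and 67.6 CPM. ACT7 stood at 690 to 813 CPM in D4h and 762 to 778 CPM in Dark. The labels give no batch, so its part in these values was not tested.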

How the data were processed

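Per the labels, RNA of the aerial part was extracted with a CTAB buffer and lithium chloride. The aligner, strand and counter are not given in the sources used here. The submitters' processing notes name build TAIR10. The authors deposited an estimated count per gene without normalization. Between 84.4% and 86.4% of these were whole numbers, within 1e-06, in the 9 total RNA libraries. RPKM values were deposited by the authors beside them. The labels number 3 replicates per group, while the series text speaks of 2. The 9 total RNA libraries were fitted together with a group term in edgeR 4.0.16 (R 4.3.3) on counts rounded to whole numbers. Low genes were removed by filterByExpr (minimum count 10), library sizes were scaled by TMM, and the quasi-likelihood test was called at a Benjamini-Hochberg adjusted p under 0.05. The SE was obtained as the log2 change divided by the square root of its F value. The fit was tested on simulated data. It called 12%, 76%, 98% and 96% of genes changed 2-fold, 4-fold, 16-fold and 64-fold, so most 2-fold changes would be missed. The simulated libraries were drawn independently, whereas D4h replicates 2 and 3 were much alike. DESeq2 1.42.0, limma 3.58.1 and other settings were alternatives.

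Members, 25 gene lists (506 different genes) and rules were chosen with earlier results of these data known, so list counts are descriptions. Named genes are the 10 per direction with the widest gap between groups (at least 10 CPM in the higher group), 6 per direction where D4h replicate 1 was farthest from D4h replicates 2 and 3, those DESeq2 called, and of each list the first 2 members, the extremes and further examples. Libraries would have counted as paired if same-numbered D4h and Dark libraries correlated above 0.1 in deviations from group means for every number. Symbols, overlaps and sequences come from RefSeq (TAIR10.1), which held 32835 of the listed genes. Reads of overlapping genes and near-identical copies cannot be assigned with certainty.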

Additional observations from a re-analysis of the deposited data

How the results depend on the processing

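The edgeR counts of 0 genes higher and 0 lower stood under RLE scaling, without the filter, with limma on both pseudocounts, with D4h and Dark fitted alone, with D4h replicates 2 and 3 averaged and with each D4h or Dark library left out (0 to 0), whereas DESeq2 called 5 higher and 10 lower. With the replicate number as a block the counts were 0 and 0, with an unadjusted p under 0.05 for 544 and 363 genes. Same-numbered D4h and Dark libraries correlated by 0.15, 0.08 and 0.11 in their deviations, so the numbers were not taken as a pairing. Omitting the libraries numbered 1 of every group, alone or with D4h replicates 2 and 3 averaged, was chosen after seeing the data and also gave 0 and 0. Of 149 genes followed, 114 kept their direction under each alternative that gave them a value and 35 did not. For 9 genes 1 or 2 of the 16 alternatives gave none. AT3G13700 counts among the 35, but of the libraries kept in darkness only D4h replicate 1 held its reads. Its 0.00 without that library is an absence of reads and no reversal. The cause of the other changes of direction was not tested. The DESeq2 call of AT1G63580 rests on few reads, and the part of depth was not tested.

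Without the libraries numbered 1 of every group, it turned to -0.22 for HYR1, -1.31 for AT1G18010, 0.88 for AT2G07698, 0.26 for BGLU19, 0.71 for AT3G53040, 0.00 for AT3G13700, 0.65 for ASN1, 0.17 for DIN1, 0.26 for PHYA, 0.01 for IAA2, -0.00 for TCH2, 0.08 for TCH3, 0.57 for RAB18, 0.08 for ACT2, 0.05 for TOC1, 0.09 for ZTL, -0.07 for SAUR19 and 0.00 for TIP41L. Without the libraries numbered 1 of every group, D4h replicates 2 and 3 averaged, it turned to -0.22 for HYR1, -1.30 for AT1G18010, 0.88 for AT2G07698, 0.26 for BGLU19, 0.70 for AT3G53040, 0.00 for AT3G13700, 0.65 for ASN1, 0.17 for DIN1, 0.26 for PHYA, 0.00 for IAA2, -0.01 for TCH2, 0.08 for TCH3, 0.56 for RAB18, 0.08 for ACT2, 0.05 for TOC1, 0.08 for ZTL and -0.08 for SAUR19. With D4h replicates 2 and 3 averaged, the log2 change turned to 0.03 for AT1G58684, -0.04 for AT5G01210, -0.04 for ACT7 and 0.01 for TIP41L. With limma on log2(RPKM + 1), the log2 change turned to -0.50 for AT5G01210, 0.06 for PAL1, 0.00 for IAA2, 0.02 for TCH3 and 0.04 for TIP41L. With limma on log2(RPKM + 0.1), the log2 change turned to -1.52 for AT5G01210, 0.06 for PAL1, 0.00 for IAA2, 0.02 for TCH3 and 0.04 for TIP41L. With replicate block, the log2 change turned to -0.32 for AT5G01210, 0.14 for AT2G07698, 0.22 for ASN1, 0.01 for PAL1, 0.03 for TCH3 and -0.00 for ACT7. With no filter, the log2 change turned to 0.01 for PAL1 and 0.00 for TIP41L. With DESeq2, the log2 change turned to -0.01 for PHYB and -0.01 for ACT7. With RLE scaling, the log2 change turned to -0.01 for PHYB and -0.01 for ACT7. With 1 library left out at a time, the log2 change ranged as follows: LHCB4.2 -0.54 to 2.28, LHCB1.1 -1.35 to 8.01, LHB1B1 -0.28 to 6.44, HYR1 -1.81 to 2.89, AT1G18010 -0.71 to 1.28, AT1G58684 -0.99 to 0.35, AT5G01210 -0.20 to 1.17, AT3G53668 -1.05 to 0.02, AT2G07698 -0.97 to 0.33, BGLU19 -0.72 to 0.22, AT3G53040 -0.77 to 0.21, AT3G13700 0.00 to 11.63, ASN1 -1.71 to 0.36, DIN1 -0.53 to 0.03, LHCA1 -0.58 to 3.32, PSAD1 -0.25 to 2.13, PSAD2 -0.72 to 2.33, HEMA1 -0.13 to 1.32, PAL1 -0.20 to 0.19, PAL2 -0.16 to 0.10, PHYA -0.40 to 0.23, PHYB -0.05 to 0.15, IAA2 -0.12 to 0.10, TCH2 -0.12 to 0.22, TCH3 -0.16 to 0.12, RAB18 -1.99 to 0.18, CYCD3;1 -0.25 to 0.76, ACT7 -0.04 to 0.09, ZTL -0.38 to 0.02, SIG5 -0.83 to 1.63, SAUR19 -0.18 to 0.29, PP2AA3 -0.12 to 0.02 and TIP41L -0.03 to 0.04.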
